A study of Mus musculus with 4 samples.

Results

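Forkhead and T-box genes encode 2 families of DNA-binding transcription factors, and their RNA was measured in the mesenchyme of mouse molar tooth germs with and without Msx1. The members are every gene name in the deposited tables that consists of Fox, a letter and a number, or of Tbx and a number. There are 56 members (43 forkhead and 13 T-box genes) among 22072 gene names. The 4 groups were Msx1-/- (mutant) upper molars, Msx1-/- lower molars, Msx1+/- (control) upper molars and Msx1+/- lower molars, all at embryonic day 14 on a mixed background, and each group is 1 library. The sample labels give the controls as Msx1+/-, by which all 4 libraries carry at least 1 mutant Msx1 allele, while the series title calls the controls wild type. Which is right was not tested, so each difference is of Msx1-/- from controls that may already lack 1 allele, and which Msx1 allele was used is not given in the labels. Laser capture took the mesenchyme from cryosections, and per the series' design text each library pools material from 3 pairs of control and mutant samples. In each library a level is a sum over the cells that were cut, so fewer cells of a type and less RNA per cell cannot be told apart.

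Forkhead factors bind DNA through a winged-helix domain. In the embryo the FoxC, FoxD, FoxF and FoxL1 genes mark mesenchyme, and FoxF genes respond to hedgehog signals from neighbouring epithelium. FoxO factors act downstream of insulin and Akt signalling, and FoxM1 drives genes of mitosis. T-box factors bind DNA through the T domain. Tbx2 and Tbx3 are mainly repressors in limb, heart and face mesenchyme, and Tbx15, Tbx18 and Tbx22 act in mesenchyme of the skeleton, the limb girdles and the palate. Msx1 encodes a homeodomain factor of dental mesenchyme without which mouse molars arrest as buds.

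Promoter sequences from RefSeq (GRCm38.p6) were at hand for 37 of the 56 members. The 19 without an entry include Tbx2, Tbx3, Tbx15 and Foxs1. Shown are the 250 bases before the start site of the mesenchymal genes Foxd1 and Foxf2, and of the 2 Foxp1 start sites that could be tied to a transcript entry in the tables, the middle one of which had higher levels in both mutant libraries than in both controls. Capitals mark the homeodomain core TAATTG, the sequence Msx factors prefer, on either strand.
Foxd1 (chr13:98353995-98354244, plus strand): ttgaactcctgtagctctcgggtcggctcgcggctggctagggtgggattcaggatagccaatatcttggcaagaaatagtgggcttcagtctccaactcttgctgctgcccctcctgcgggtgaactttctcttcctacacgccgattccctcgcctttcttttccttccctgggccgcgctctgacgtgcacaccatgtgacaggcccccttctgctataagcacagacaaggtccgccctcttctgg
Foxf2 (chr13:31625566-31625815, plus strand): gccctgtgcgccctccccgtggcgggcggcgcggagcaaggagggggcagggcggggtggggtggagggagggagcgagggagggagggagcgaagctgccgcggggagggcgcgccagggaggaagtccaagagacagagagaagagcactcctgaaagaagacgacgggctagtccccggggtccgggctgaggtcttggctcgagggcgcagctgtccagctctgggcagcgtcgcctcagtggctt
Foxp1 middle start (chr6:99266516-99266765, minus strand): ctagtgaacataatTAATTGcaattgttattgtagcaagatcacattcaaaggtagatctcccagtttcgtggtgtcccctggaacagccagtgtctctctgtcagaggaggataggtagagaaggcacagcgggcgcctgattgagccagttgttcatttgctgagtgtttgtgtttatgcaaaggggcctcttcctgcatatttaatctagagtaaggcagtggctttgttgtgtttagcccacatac
Foxp1 downstream start (chr6:99028299-99028548, minus strand): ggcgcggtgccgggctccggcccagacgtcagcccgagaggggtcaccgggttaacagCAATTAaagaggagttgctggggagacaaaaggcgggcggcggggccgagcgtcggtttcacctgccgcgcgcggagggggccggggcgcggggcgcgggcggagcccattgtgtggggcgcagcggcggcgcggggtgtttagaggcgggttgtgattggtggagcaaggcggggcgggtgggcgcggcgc
The Foxd1 and Foxf2 stretches hold no TAATTG. Each Foxp1 stretch holds 1, which begins 236 bases before the middle start and 192 bases before the downstream start. Over windows of 300 bases (50 of them after the start), 5 of 45 member windows (11.1%) hold TAATTG or its reverse complement CAATTA, against 2628 of 32851 windows of all genes (8.0%), and the members are Foxa1, Foxp1, Foxp3 and Tbx18. The forkhead site TGTTTAC or GTAAACA is in 1 member window (Foxa1) and in 3.65% of all windows. The T-box site AGGTGTGA or TCACACCT is in 0 of 45 member windows and in 1.28% of all windows. The Foxf2 stretch is 71.6% G and C with 21 CG pairs, and the Foxd1 stretch 57.2% with 12, where the median stretch of all genes has 52.4% and 6.

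Depth and tissue set the frame for all values. Coverage summed over annotated transcripts was 395 and 264 megabases in mutant upper and lower molars, against 410.3 and 324 megabases in control upper and lower molars. All 8 dental mesenchyme markers were present in every library. Without the targeted gene Msx1 the other 7 summed to 467 and 342 FPKM in mutant upper and lower molars, against 493 and 413 FPKM in control upper and lower molars. The most abundant of them, Prrx1, was at 163 and 117 FPKM in the mutant and 129.7 and 136 FPKM in the control libraries. Dlx2, a homeobox gene of the jaw arches, was called lower in both jaws, at 14.7 and 2.66 FPKM in the mutant and 56.3 and 34.7 FPKM in the control libraries. Dlx1 was called lower in lower molars only, where 9.43% of all genes were. Its difference there was -1.04, and -0.58 to -0.55 after rescaling, so that call was lost. As deposited 0 of the 7 were called higher in either jaw, and after rescaling the lower-molar difference of Pax9 was 0.99 to 1.02. FPKM counts fragments relative to transcript length and to the fragments mapped in the library. Values were used as deposited, and differences are on the log2(FPKM + 1) scale. Over all genes the median difference, mutant minus control, was -0.03 for upper and -0.39 for lower molars, so lower-molar differences are read against -0.39. Rescaling the libraries by the median of ratios brought both medians to within 0.01 of 0. A gene is called higher or lower where its difference is at least 1 in size. The targeted gene itself was at 126 and 85.9 FPKM in mutant upper and lower molars, against 169.6 and 184 FPKM in control upper and lower molars, with differences of -0.43 and -1.09 (-0.61 to -0.58 in lower molars after rescaling). The labels do not say what the mutant allele removes, so this total over the Msx1 gene does not check the genotypes. Each group is 1 library, so no difference has a replicate check.

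Of the 56 members, 21 averaged 1 FPKM or more and were kept for the calls (17 forkhead and 4 T-box genes). Foxs1, at a mean of 0.970 FPKM, and Foxp2, at 0.848 FPKM, fell just below that mean and reached 1 FPKM in some libraries, and Foxc1 and Foxd1, both at 1.08 FPKM, lay just above it. A further 24 members were above 0 somewhere but never reached 1 FPKM, and 9 were listed at 0 in every library. The most abundant members were Tbx3, Tbx2, Foxm1 and Foxo3, with means of 21.8, 12.6, 11.8 and 10.2 FPKM. The most abundant forkhead gene of the tables is not a member by its name: Foxf1a, the mouse Foxf1 gene, averaged 34.4 FPKM. It is described beside Foxf2 and was chosen after its values were seen.

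**Figure D1:**
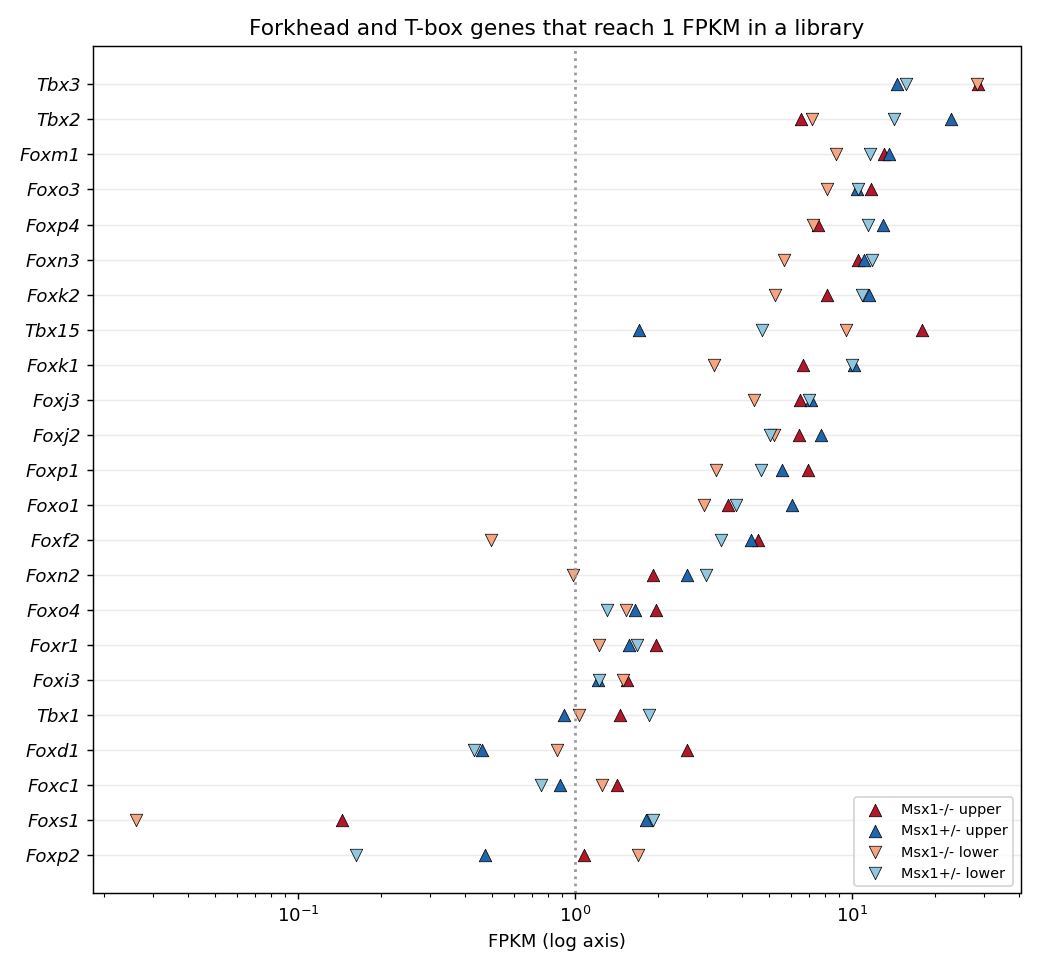
FPKM (log axis) of the 23 forkhead and T-box genes that reach 1 FPKM in a library, in order of their mean. Each point is 1 library: upward triangles are upper and downward triangles lower molars, dark or light red for Msx1-/- and dark or light blue for Msx1+/-. Tbx3, Tbx15, Foxc1, Foxd1, Foxi3 and Foxp2 have both mutant points to the right of both control points. Tbx2, Foxs1, Foxj3, Foxk1, Foxk2, Foxn2, Foxn3, Foxo1 and Foxp4 have both to the left. Foxc1, Foxd1 and Foxp2 reach 1 FPKM only in mutant libraries and Foxs1 only in control libraries, so their sides are no evidence beyond the values. Foxp2 and Foxs1 are not kept genes, so the shares that follow do not cover them. Among all kept genes 9.52% had both mutant libraries above both controls and 41.3% had both below.

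The first comparison asked which members differed between Msx1-/- and Msx1+/- mesenchyme. In upper molars Tbx15 and Foxd1 were higher and Tbx2 was lower in the mutant, which is 3 of 21 kept members, where 4.34% of all 10536 kept genes were called. Foxd1 reached the mean of 1 FPKM only through the mutant upper library in which it is high, so its call is no evidence beyond its values, and without it the count is 2 (Tbx15 and Tbx2). Foxc1, which was not called, reached that mean only through the mutant libraries. In lower molars Foxf2, Foxk1 and Foxn2 were lower and 0 members were higher, again 3 of 21, where 10.3% of all genes were called and 9.43% were called lower. After rescaling by the median of ratios the 3 lower-molar calls were Foxf2, which was lower, and Tbx15 and Tbx3, which were higher, where 5.37% of all genes were called. The all-gene split in lower molars was 91 higher and 994 lower on deposited values and 247 higher and 319 lower after that rescaling. In both jaws together 0 of 21 members were called, where 1.99% of all genes were (42 higher and 168 lower, or 72 and 122 after rescaling). Fully separated, with the lowest library of one genotype at least 1 from the highest of the other, were also 0 of 21, where 1.44% of all genes were. The 21 kept members had a median of 0.07 (upper) and -0.37 (lower), beside -0.03 and -0.39 for all genes. Below 0 were 10 members in upper molars and 14 in lower molars, and after rescaling by the median of ratios 10 were below 0 in each jaw.

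**Figure D2:**
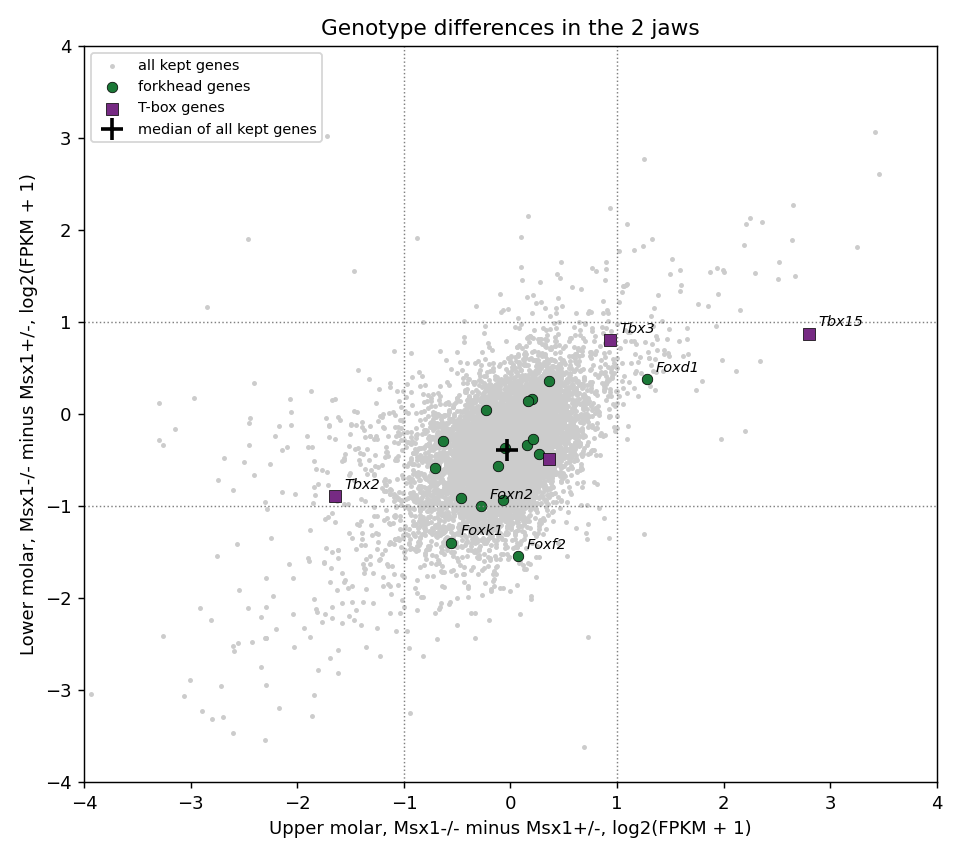
Differences in log2(FPKM + 1), Msx1-/- minus Msx1+/-, in upper molars (x axis) and lower molars (y axis) for all kept genes (grey), kept forkhead genes (green circles) and kept T-box genes (purple squares); the cross is the median of all genes and dotted lines mark differences of 1 in size. Tbx15 stands far to the right at 2.80 and 0.88 and Tbx2 to the left at -1.65 and -0.89, and 10 grey genes lie outside the axes.

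Tbx15, a regulator of mesenchymal precursors of the skeleton (chromosome 3, 99057683 to 99158183, mm9), was at 17.9 FPKM in mutant upper molars against 1.70 FPKM in control upper molars, and at 9.52 FPKM in mutant lower molars against 4.74 FPKM in control lower molars. Both mutant libraries were above both control libraries, and the ratio was 10.5 in upper and 2.01 in lower molars. The differences were 2.80 and 0.88, and after rescaling by the median of ratios, to a common upper quartile or to a common total the lower-molar difference was between 1.31 and 1.33, so Tbx15 was then called in both jaws. Its relative Tbx18, which is known from sclerotome and limb mesenchyme, stayed below 1 FPKM in every library, at 0.199 and 0.757 FPKM in mutant upper and lower molars and 0.132 and 0.322 FPKM in the control ones. Tbx22, whose loss causes cleft palate in humans, was at 0.180 and 0.530 FPKM in mutant upper and lower molars and 0.102 and 0.00529 FPKM in control upper and lower molars, where the last value rests on 22 aligned bases. Tbx18 and Tbx22 were named after their values were seen. Tbx1, a gene of pharyngeal mesoderm and dental epithelium, was kept but not called, at 1.45 FPKM in mutant and 0.911 FPKM in control upper molars, and at 1.04 FPKM in mutant and 1.86 FPKM in control lower molars.

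Tbx2 and Tbx3, closely related T-box repressors, had opposite differences. Tbx2 (chromosome 11, 85646117 to 85655450) was at 6.56 and 7.19 FPKM in mutant upper and lower molars, against 22.7 and 14.1 FPKM in control upper and lower molars. Tbx3 (chromosome 5, 120120678 to 120134610) was at 28.6 and 28.3 FPKM in the mutant and 14.5 and 15.7 FPKM in the control libraries. For each gene the mutant libraries do not overlap the control libraries. Of the 21 members 5 had both mutant libraries above both controls and 8 had both below, or 8 and 6 after rescaling by the median of ratios. Foxc1 and Foxd1, which are among those above, were kept only through mutant libraries in which they are high. The counts of members above are thus no evidence beyond the values. Among all kept genes 9.52% had both mutant libraries above both controls and 41.3% had both below, and these shares were 24.3% and 23.5% after rescaling by the median of ratios. The Tbx2 differences were -1.65 (upper) and -0.89 (lower), and -0.44 to -0.42 in lower molars after the 3 rescalings. Tbx3 differed by 0.93 and 0.81 and was not called on deposited values. After rescaling its difference was 1.28 to 1.31 in lower molars and 0.98 to 1.07 in upper molars, where it was called after 2 of the 3 rescalings. The ratio of Tbx3 to Tbx2 within a library, which no rescaling changes, was 4.36 and 3.93 in mutant upper and lower molars, against 0.638 and 1.11 in control upper and lower molars. Tbx3 was thus the lower of the pair in control upper molars and the higher in the other 3 libraries.

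Each of these genes has another T-box gene beside it on the chromosome. Tbx4, a hindlimb gene, lies 48.1 kb from Tbx2 and was at 0.264 and 0.207 FPKM in mutant upper and lower molars and 0.347 and 0.410 FPKM in control ones. Tbx5, a forelimb and heart gene, lies 150.1 kb from Tbx3 and was at 0.109 and 0.143 FPKM in the mutant and 0.0820 and 0.0337 FPKM in the control libraries. Neither reached 1 FPKM, so the neighbours were far below Tbx2 and Tbx3 in all 4 libraries. Of the T-box genes whose names fall outside the rule, Mga, a repressor that also binds Max, was at 6.72 and 5.78 FPKM in mutant upper and lower molars and 6.67 and 7.55 FPKM in the control ones, while T, Eomes and Tbr1 stayed at or below 0.13 FPKM. Tbx6, Tbx10, Tbx20 and Tbx21 were never above 0.206 FPKM and Tbx19 was listed at 0 throughout.

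Among forkhead genes of mesenchyme, Foxf2 was low in the mutant lower library alone. Foxf2 (chromosome 13, 31717685 to 31723275), a hedgehog-responsive gene needed for palate growth in mice, was at 4.58 FPKM in mutant and 4.33 FPKM in control upper molars, and at 0.495 FPKM in mutant and 3.36 FPKM in control lower molars. The lower-molar ratio of control to mutant was 6.78 and the difference -1.54, or between -1.30 and -1.28 after the 3 rescalings. The mutant lower value rests on 1083 aligned bases, against 6453 in control lower molars. Foxf1a (chromosome 8, 123608374 to 123610779) was at 27.5 FPKM in mutant and 44.8 FPKM in control upper molars, and at 9.44 FPKM in mutant and 55.9 FPKM in control lower molars. Its differences were -0.69 and -2.45, so Foxf1a too was called lower in lower molars, and the mutant lower library was the lowest for both FoxF genes.

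Foxc1, which is needed for skull and eye mesenchyme in mice, lies 175 kb from Foxf2 and had another pattern. It was at 1.41 and 1.25 FPKM in mutant upper and lower molars, against 0.880 and 0.757 FPKM in control upper and lower molars, with differences of 0.36 in each jaw. The ratio of Foxf2 to Foxc1 within a library was 3.24 and 0.396 in mutant upper and lower molars, against 4.92 and 4.44 in control upper and lower molars. Foxq1, on the other side of Foxf2, was at 0.0436 and 0.361 FPKM in the mutant and 0.136 and 0.163 FPKM in the control libraries. Foxc2 and Foxl1, which lie beside Foxf1a, were never above 0.186 FPKM, and Foxd2 never above 0.152 FPKM. Foxc2, Foxd2, Foxl1 and Foxq1 were named after their values were seen.

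Foxd1, a gene of kidney stroma and face mesenchyme (chromosome 13, 99124200 to 99126660, mm9), was at 2.55 and 0.863 FPKM in mutant upper and lower molars, against 0.462 and 0.433 FPKM in control upper and lower molars. The mutant libraries lay above the controls in both jaws, and the upper-molar ratio was 5.51. Its differences were 1.28 and 0.38, and the control upper and lower levels rest on 1188 and 865 aligned bases. Foxs1, a forkhead gene known from pericytes and sensory neurons, was low in the mutant, at 0.144 and 0.0259 FPKM in mutant upper and lower molars, against 1.80 and 1.91 FPKM in control upper and lower molars. The differences were -1.29 and -1.50, so with no filter on low values Foxs1 would be called lower in both jaws. The mutant lower value rests on 31.4 aligned bases and the mutant upper value on 205, against 2031 and 2468 in the lower and upper controls.

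Foxk1, a regulator of glycolysis and autophagy genes, was at 6.63 FPKM in mutant and 10.2 FPKM in control upper molars, and at 3.19 FPKM in mutant and 10.02 FPKM in control lower molars. Its lower-molar difference was -1.40, and -0.99 to -0.97 after the 3 rescalings, so the call was lost by a small margin. Foxk2, its close relative, was at 8.09 and 5.28 FPKM in mutant upper and lower molars and 11.5 and 10.8 FPKM in control ones, with differences of -0.46 and -0.91. Foxn2 was at 1.92 and 0.981 FPKM in mutant upper and lower molars and 2.55 and 2.96 FPKM in control ones, and its lower-molar difference of -1.0 was -0.71 to -0.69 after rescaling. Foxn3, a cell cycle checkpoint gene, was at 10.5 FPKM in mutant and 11.1 FPKM in control upper molars, and at 5.68 FPKM in mutant and 11.8 FPKM in control lower molars. Foxj2 and Foxj3 were not called in either jaw, with 6.44 and 5.23 FPKM for Foxj2 in mutant upper and lower molars and 7.72 and 5.05 FPKM in control ones. Foxj3 was at 6.47 and 4.42 FPKM in the mutant and 7.13 and 6.99 FPKM in the control libraries. Foxr1 was at 1.97 and 1.23 FPKM in the mutant and 1.56 and 1.68 FPKM in the control upper and lower molars. The 7 kept FoxK, FoxJ, FoxN and FoxR genes had a median of -0.23 (upper) and -0.91 (lower), where all genes had -0.03 and -0.39.

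**Figure D3:**
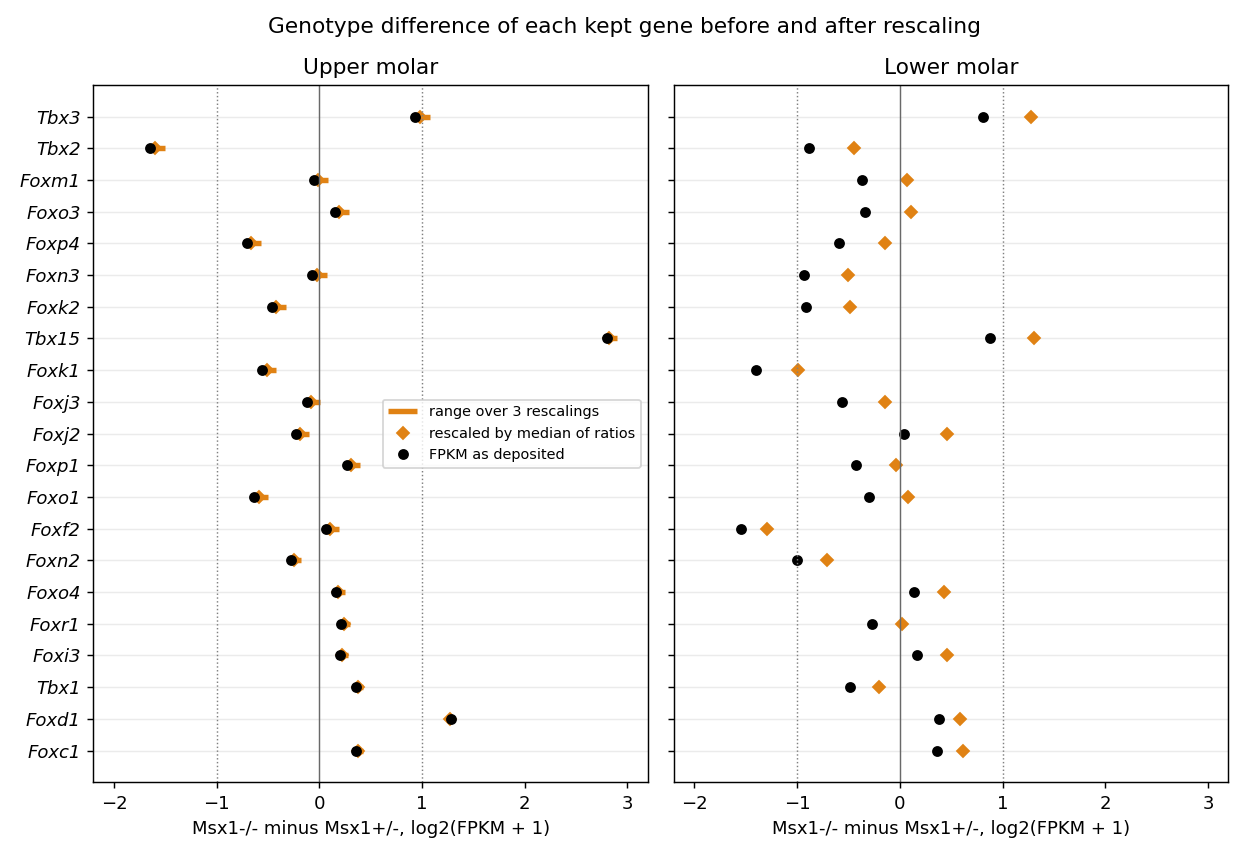
Difference in log2(FPKM + 1), Msx1-/- minus Msx1+/-, of the 21 kept forkhead and T-box genes in upper molars (left) and lower molars (right). Black points use FPKM as deposited, orange diamonds the values rescaled by the median of ratios, and orange bars the range over 3 rescalings. In lower molars every gene moves to the right, Tbx3 and Tbx15 past the dotted line at 1 and Foxk1 and Foxn2 inside the line at -1, while Foxf2 stays at or below -1.28.

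None of the kept FoxO genes (Foxo1, Foxo3, Foxo4) and not Foxm1 was called in either jaw. Foxo3 was at 11.7 and 8.13 FPKM in mutant upper and lower molars and 10.4 and 10.5 FPKM in control ones. Foxo1 was at 3.57 and 2.91 FPKM in the mutant and 6.08 and 3.80 FPKM in the control libraries, with differences of -0.63 and -0.30, and the lower-molar value turned to 0.08 to 0.10 after the rescalings. Foxo4 was at 1.96 and 1.53 FPKM in the mutant and 1.64 and 1.30 FPKM in the control libraries, and Foxo6 was between 0.453 and 0.651 FPKM in all 4. Of 13 kept genes from a list of FoxO targets, 3 were called lower in upper molars (Bcl2l11, Trp53inp1 and Fbxo32), where 3.26% of all genes were. In lower molars 2 were called lower (Cdkn1b and Fbxo32), where 9.43% of all genes were. Called higher were 0 in either jaw, where 1.07% (upper) and 0.864% (lower) of all genes were. Bcl2l11, Trp53inp1 and Cdkn1b were named after their values were seen, and Cdkn1b was inside 1 after rescaling, at -0.88 to -0.86. In both jaws 1 was called lower, where 1.59% of all genes were: Fbxo32, a ubiquitin ligase gene of muscle wasting, at 0.493 and 0.0620 FPKM in mutant upper and lower molars and 2.73 and 2.28 FPKM in control ones. The list's median was 0.00 in upper and -0.64 in lower molars. Foxm1 was at 13.1 and 8.77 FPKM in mutant upper and lower molars and 13.6 and 11.7 FPKM in control ones, with differences of -0.05 and -0.37, and the lower-molar value was 0.07 to 0.10 after rescaling. Of 14 kept FoxM1 targets of mitosis 0 were called in upper molars and 1 was lower in lower molars (Cenpb, named after its values were seen, at -1.11 and -0.67 to -0.65 after rescaling), where 9.43% of all genes were called lower. Their median was 0.19 in upper and -0.37 in lower molars.

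FoxP genes are repressors with roles in lung, brain and lymphocytes. Foxp2, known for its role in speech circuits in humans, was at 1.07 and 1.68 FPKM in mutant upper and lower molars, against 0.471 and 0.162 FPKM in control upper and lower molars, with differences of 0.50 and 1.21. Foxp4 was at 7.56 and 7.24 FPKM in the mutant and 13.0 and 11.4 FPKM in the control upper and lower molars, with differences of -0.70 and -0.59 that were -0.66 to -0.57 and -0.15 to -0.12 after rescaling. Foxp1 as a whole was at 6.95 and 3.23 FPKM in the mutant and 5.59 and 4.70 FPKM in the control upper and lower molars. Foxp3, the factor of regulatory T cells, never exceeded 0.114 FPKM.

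Below the level of the gene, some transcript entries of Foxp1 and Foxp4 held unlike shares in the genotypes. The longest entry (7177 bases), which begins farthest upstream, held 40.4% and 20.5% of Foxp1 FPKM in mutant upper and lower molars, against 75.7% and 67.6% in control upper and lower molars. The entry of 7025 bases, which begins at the middle start printed above, was at 1.86 and 1.14 FPKM in mutant upper and lower molars, against 0.235 and 1.79e-05 FPKM in control upper and lower molars. The entry of 6632 bases from the downstream start was at 2.28 and 1.43 FPKM in the mutant and 1.13 and 1.52 FPKM in the control libraries, so its levels overlap between the genotypes. The middle and downstream starts lie 238217 bases apart in both builds, which ties the printed sequences to these entries. The Foxp4 entries begin at a common position. Of Foxp4 FPKM the entry of 3986 bases held 66.5% and 20.1% in mutant upper and lower molars, against 14.1% and 11.0% in control upper and lower molars. The entry of 4025 bases held 10.4% and 0.0012% in the mutant, against 31.8% and 13.8% in the control libraries. Neither of these shares overlaps between the genotypes, but for how many entries of all genes this holds was not counted. The entry of 3989 bases held 23.1% and 79.9% in mutant upper and lower molars, against 54.0% and 75.1% in control ones. Its shares thus overlap between the genotypes. The Foxp4 entries differ little in length (3986, 3989 and 4025 bases). In Tbx4, which stayed below 1 FPKM, nearly all FPKM fell to the entry of 3011 bases in the mutant libraries. In the control libraries it fell to the entry of 2961 bases. Tbx3 came almost wholly from 1 entry (5022 bases), with 97.6% and 92.2% in the mutant and 90.5% and 94.0% in the control libraries. The authors' values share reads among entries that overlap, so these shares are estimates with an error that is not known.

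**Figure D4:**
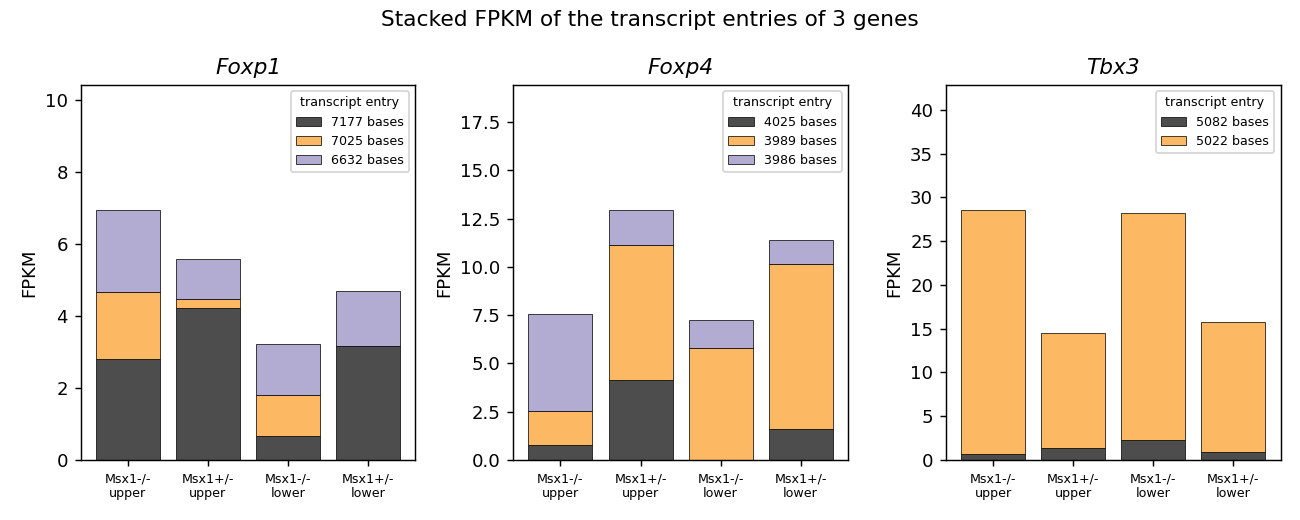
FPKM of the transcript entries of Foxp1, Foxp4 and Tbx3, stacked, in each library; colours give the length of the entry. The longest Foxp1 entry (dark grey) holds 40.4% and 20.5% of the bar in the Msx1-/- libraries and 75.7% and 67.6% in the Msx1+/- libraries.

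The other forkhead genes are best known from epithelium, endoderm, neural tissue or neural crest. Foxi3, a gene of ectoderm and dental epithelium, was the 1 kept gene of these 15, at 1.53 and 1.49 FPKM in mutant upper and lower molars and 1.21 and 1.22 FPKM in control ones. Foxe1, a gene of pharyngeal and oral epithelium, was at 0.271 and 0.431 FPKM in mutant upper and lower molars and listed at 0 in the control libraries. Foxj1, a regulator of motile cilia, belongs to the FoxK, FoxJ, FoxN and FoxR genes above and was not kept. It was at 0.40 FPKM in mutant and 0.577 FPKM in control upper molars, and at 0.0642 FPKM in mutant and 0.605 FPKM in control lower molars. Foxe1 and Foxj1 were named after their values were seen. Of the 15, Foxb2, Foxd4, Foxe3, Foxh1 and Foxi2 were listed at 0 in every library, and so were Foxn1, Foxn4 and Foxr2 of the FoxN and FoxR genes.

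Markers of epithelium, cartilage, macrophages and osteoblasts had larger sums in both mutant libraries than in the control of the same jaw. Epithelial markers (9 genes) summed to 46.1 and 63.5 FPKM in mutant upper and lower molars, against 24.6 and 40.5 FPKM in control upper and lower molars, with Krt5 and Krt14 the most abundant, Krt15 called higher in both jaws (3.15 and 9.09 FPKM in the mutant and 0.865 and 1.94 FPKM in the control libraries) and Shh at 0 in both controls and 0.02 FPKM in each mutant library. Cartilage markers (5 genes) summed to 8.80 and 17.7 FPKM in the mutant and 3.59 and 3.77 FPKM in the control libraries, with Matn1 at 0 in 3 libraries. Hapln1, a link protein gene of cartilage matrix, was called higher in both jaws, at 3.93 and 10.3 FPKM in the mutant and 1.30 and 1.70 FPKM in the control libraries. Macrophage markers (6 genes) summed to 24.9 and 31.0 FPKM in the mutant and 15.5 and 20.5 FPKM in the control libraries. Endothelial markers (8 genes) summed to 44.3 and 42.1 FPKM in the mutant and 44.9 and 51.6 FPKM in the control libraries. Osteoblast markers (5 genes) summed to 29.7 and 17.2 FPKM in the mutant and 18.0 and 16.8 FPKM in the control libraries. That sum holds opposite calls in both jaws: Ibsp, a bone matrix gene, was higher at 19.1 and 9.21 FPKM in the mutant and 4.25 and 2.40 FPKM in the control libraries, and Ifitm5 was also higher. Spp1, the gene of osteopontin, was lower at 0.0217 and 0.0213 FPKM in the mutant and 5.70 and 6.92 FPKM in the control libraries. Glia and neuron markers (6 genes) summed to between 2.55 and 4.17 FPKM, and skeletal muscle markers (7 genes) to between 3.07 and 5.36 FPKM. The part of these cells in the forkhead and T-box differences was not tested.

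Hedgehog genes and Groucho corepressors, which forkhead and T-box repressors can recruit, were set beside the members. Of 9 kept hedgehog genes 0 were called in both jaws. In upper molars 0 were called. In lower molars 2 were lower and 0 higher, where 9.43% of all genes were called lower: the receptor gene Ptch1, at 6.66 FPKM in mutant and 15.4 FPKM in control lower molars, and the effector gene Gli2, at 4.47 FPKM in mutant and 11.7 FPKM in control lower molars. Ptch1 was at 20.9 FPKM in mutant and 18.4 FPKM in control upper molars, and both genes were chosen after their values were seen. After the 3 rescalings neither was called, with lower-molar differences of -0.66 to -0.63 for Ptch1 and -0.79 to -0.77 for Gli2. Cdon and Gas1 were then called higher in lower molars, at 1.42 to 1.44 and 1.03 to 1.05. After the median of ratios 2.34% of all genes were called higher there. Cdon and Gas1 were also named after their values were seen. The hedgehog median was 0.18 in upper and -0.80 in lower molars, where all genes had -0.03 and -0.39. Of 6 kept Groucho genes 1 was lower in upper molars, where 3.26% of all genes were called lower, and 0 were called in lower molars. It was Tle3 (named after its values were seen), at 8.81 FPKM in mutant and 19.2 FPKM in control upper molars, with a difference of -1.04 that was -0.995 to -0.90 after rescaling. The Groucho median was -0.60 (upper) and -0.51 (lower).

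The other comparison set upper against lower molars of each genotype. The all-gene median, upper minus lower, was 0.27 in mutant and -0.08 in control libraries, and the median gap between the genotype differences of the jaws, upper minus lower, was 0.34. In mutant libraries Foxf2 was higher in upper molars (1 of 21 members, where 3.63% of all genes were called), at 4.58 FPKM in upper and 0.495 FPKM in lower molars, a difference of 1.90, or 1.76 to 1.80 after rescaling. All genes split into 339 higher and 43 lower in mutant upper molars, or 136 and 100 after rescaling by the median of ratios. In control libraries the Foxf2 difference was 0.29. Tbx15 was the 1 member called in control libraries, where 1.70% of all genes were, at 1.70 FPKM in upper and 4.74 FPKM in lower molars, a difference of -1.09. That call was lost after 2 of the 3 rescalings, which gave -1.03 to -0.96. In the mutant the Tbx15 difference was 0.84, or 0.52 to 0.58 after rescaling. Called in both genotypes were 0 of 21 members, where 0.161% of all genes were. The genotype difference was apart by at least 1 between the jaws in Foxf2 (1.61) and Tbx15 (1.93), which is 2 of 21 members, where 6.91% of all genes were. After rescaling Foxf2 was at 1.398 to 1.47 and Tbx15 at 1.51 to 1.56, and Tbx2 joined them in the other direction at -1.16 to -1.09, which is 3 of 21 members, where 4.38% of all genes were after the median of ratios. All genes split into 590 higher and 138 lower on deposited values and 160 and 301 after that rescaling. In the mutant Tbx2 and Tbx3 differed between the jaws by -0.11 and 0.02 as deposited, and by -0.43 to -0.37 and -0.33 to -0.26 after rescaling, while Tbx2 was at 22.7 FPKM in upper and 14.1 FPKM in lower molars of the control.

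A limma fit of log2(FPKM + 1) on genotype and jaw over all 4 libraries and 10536 genes gave an interval for each difference, with the jaws standing in for replicates. At a Benjamini-Hochberg adjusted p under 0.05, 3 of 21 members differed by genotype, where 6.46% of all genes did. Tbx15 differed by 1.84 (95% interval 1.26 to 2.42, limma adjusted p = 7.7e-08) and was higher in 2 of 2 mutant libraries. Tbx2 differed by -1.27 (-1.85 to -0.69, limma adjusted p = 0.00089) and Foxk1 by -0.98 (-1.56 to -0.39, limma adjusted p = 0.022), each lower in 2 of 2 mutant libraries. Tbx3 missed the threshold at 0.87 (0.29 to 1.45, limma adjusted p = 0.052), and so did Foxd1 at 0.83 (0.25 to 1.41, limma adjusted p = 0.072). Foxd1 entered the fit only through the mutant upper library in which it is high, so its interval is no evidence beyond its values. By jaw Foxf2 was the 1 member past the threshold, at 1.10 (0.51 to 1.68, limma adjusted p = 0.029), where 0.930% of all genes were. That value averages unlike jaw differences, 1.90 in mutant and 0.29 in control libraries. It thus does not show a jaw difference shared by the genotypes. The fit has 1 residual degree of freedom and took its variance from all genes at 1 common value, so genes that vary more than most get intervals that are too narrow. It used FPKM as deposited, where the all-gene median was -0.03 in upper and -0.39 in lower molars. Rescaled by the median of ratios, Foxk1 differed by -0.51 and -0.99 and Tbx3 by 0.98 and 1.28 in upper and lower molars. The fit was not repeated on rescaled values, so which of these genes would then pass was not tested.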

How the data were processed

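RNA from laser-captured molar mesenchyme was converted to cDNA by NuGEN's Ovation RNA-Seq v2 chemistry, per the labels' protocols, and strand is not stated. The submitters' processing notes name Bowtie 0.12.7, TopHat 1.4.1 and the mm9 build. Per the file headers, the deposited tables hold FPKM, coverage (a signal) and a status flag for 28107 transcript rows per library. For Cufflinks the sources used here name no version. Deposited coverage equals FPKM times a constant per library (0.812 to 1.09), and aligned bases are coverage times transcript length. No counts are at hand.

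FPKM was summed per gene name. Left out were 66 names with a failed estimate and 716 small RNA names, and genes averaging 1 FPKM or more were kept (10536). Differences of log2(FPKM + 1) of at least 1 in size were called. Start positions count from 0 in the files, so 1 was added. A limma fit (limma 3.58.1, R 4.3.3) was an alternative, and calls and fit were tested on simulated data. By rule the genes named were every member that reaches 1 FPKM in a library, Msx1, T-box relatives outside the name pattern, and of each list at most 2 genes called in both jaws, plus the 2 most abundant of a cell type list. Not all abundant markers are listed, and other genes, among them members below 1 FPKM, Dlx1, Pax9, Ifitm5, Matn1 and Shh, were named after their values were seen. The members and lists were chosen with earlier results of these data known. Alternatives were pseudocounts of 0.1 and 5, no filter, a mean of at least 5 FPKM, 3 rescalings, the highest transcript per gene, and failed estimates kept. Python 3.11.15, pandas 2.3.3 and matplotlib 3.10.9 were used.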

Additional observations from a re-analysis of the deposited data

Results flagged for a closer look

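In 2 genes the difference of genotype differences (upper minus lower molar) was at least 1 in size, and this was not tested. For Foxf2 it was 1.61, with a mutant minus control difference of 0.07 in upper and -1.54 in lower molars. For Tbx15 it was 1.93, with an upper minus lower difference of 0.84 in mutant and -1.09 in control libraries. Each value rests on 4 single libraries.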

How the results depend on the processing

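No paired analysis was possible because each group is 1 library and the labels give no replicate numbers. Counts are of members called, with the share of all genes called in brackets, 3 by genotype in upper molars, 3 in lower molars, 0 in both jaws and 0 fully separated on deposited values. With a pseudocount of 0.1, 5 were called in lower molars (17.9%), 4 between mutant jaws (8.31%) and 6 had genotype differences apart by 1 between the jaws (14.7%). With a pseudocount of 5 these counts were 0 (3.31%), 0 (0.949%) and 1 (1.80%), and between control jaws 0 (0.645%). With no filter, 5 were called in lower molars (5.23%), and Foxs1 was the 1 called in both jaws (213 of 21292 genes) and the 1 fully separated (0.728%). With a mean of at least 5 FPKM, 1 was called in lower molars (14.4%), 0 between mutant jaws (4.93%) and 1 differed between the jaws (8.98%). Rescaling by median of ratios, upper quartile and total gave 1, 2 and 2 called in both jaws (1.84%, 1.85% and 1.82%), 1, 1 and 2 fully separated (147 of 10536 genes, 1.43% and 1.39%), and 0 between control jaws after median of ratios (1.86%) and total (2.01%). The both-jaw and separated genes were Tbx15 and, where 2, also Tbx3. With the highest transcript per gene, 5 were called in upper molars (5.87%) and 3 between mutant jaws (5.87%). The limma fit gave 3 by genotype, where 681 of 10536 genes passed (1795 at an unadjusted p under 0.05), and 1 by jaw (0.930%). Keeping failed estimates could change no count, as 0 members have a failed estimate. Of 720 single differences recomputed, 688 kept their side of the threshold, 18 gained a call, 14 lost one and 0 of the called ones changed sign. The filter settings and the kept failed estimates leave each single difference as it was. Their part of the 688 was thus fixed in advance, and all gains and losses came from the pseudocounts, the rescalings and the highest transcript per gene. The cause was not tested. Members under 1 FPKM rest on few aligned bases, and no interval for them can be given without read counts.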
